A study of Mus musculus with 32 samples.

Results

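Among photoreceptor transcripts of Per mutant mice, 46 protein-coding genes stood higher in every mutant library than in any wild type library, apart from the clock genes and other named genes that were set aside. Photoreceptors are the rods and cones of the retina, and they were cut from snap-frozen eyes by laser microdissection. The 2 genotypes were WT and Per1-/-Per2Brdm1 (KO), in male mice aged 6 weeks on a C57BL/6/J x 129 SvEvBrd background, taken at circadian times (CT) 19, 22, 1 and 10, with 4 libraries at each time and so 16 of each genotype. The study asked how Per1 and Per2 bear on the daily rhythm in which the pigment epithelium engulfs shed photoreceptor tips. CPM is the count of a gene scaled to the total of its library. The transcripts of both targeted genes were higher in the libraries labelled KO: Per1 was at most 143 CPM in WT and at least 176 CPM in KO, and Per2 at most 42.5 and at least 168 CPM. Counts over whole genes do not show whether the disrupted parts were read, so they do not check the genotype, and WT and KO stand for the labels throughout. The labels do not say whether WT and KO animals came from the same litters.

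The members were chosen on their values. Of 54232 genes in the table, 10823 were protein-coding with a mean of at least 2 CPM over the 32 libraries, and 62 of these (0.573%) had their lowest KO value above their highest WT value. The rule set aside 20 named genes, 16 of which met it: Per1, Per2, Per3, Cry1, Cry2, Ciart, Dbp, Tef, Hlf, Bhlhe41, Nr1d1, Nr1d2, Col4a3, Col4a4, Akap5 and Nyx. The other 46 are the members, and the limit of 100 was not reached. In the opposite direction 12 genes (0.111%) had their highest KO value below their lowest WT value. Since KO against WT chose the members, their differences between the genotypes are given as a description, with no test. The rule did not read their place in the genome or their promoters. It did not compare the times with each other, but its extremes run over all times and so limit the course over the day.

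PER proteins are the negative limb of the circadian clock. They hold back the activators CLOCK and BMAL1, which bind the E-box, and the clock passes time on through further factors: DBP, TEF and HLF activate, and NFIL3 represses, through the D-box, while REV-ERB and ROR proteins act through the ROR element. In photoreceptors this clock is known to time phototransduction, metabolism and the shedding of outer segment tips. The Brdm1 allele removes part of the PAS domain of PER2, through which PER proteins pair. The D-box activators themselves stood higher in KO, Dbp by 1.83, Tef by 1.17 and Hlf by 1.2 on the log2 scale.

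Promoters were read from RefSeq (GRCm38.p6), in windows from 250 bases before to 50 after each listed start. An entry was at hand for 36 of the 46 members (78.3%) and none for Amer1, Ccdc88c, Cndp2, Fbxo3, Oplah, Pbx3, Rasl10b, Slc6a15, Snrpb and Stk3. That is under the 80% set for a property of a gene set, so as a statement on all members the motif counts are void, and they describe the 36 genes alone. A D-box (TTATGTAA or TTACGTAA, either strand) lay in a promoter of 7 of the 36 (19.4%): Ankrd40, Coq10b, Gzmm, Jdp2, Smim10l1, Trak1 and Txndc16. Among genes of mean CPM 2 or more with an entry, 72 of 8601 (0.837%) held one and it lay in 1.06% of all 32851 promoter windows. Smim10l1 held 2 matches in its single window. TTACATAA is TTATGTAA read on the other strand. The matches are shown 5′ to 3′ with up to 25 bases on either side, and capitals mark the D-box, because the D-box is the motif through which DBP, TEF and HLF act, and its share is a description with no test.
Ankrd40, chr11:94327902-94327959, plus strand: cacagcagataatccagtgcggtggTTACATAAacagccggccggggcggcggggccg
Coq10b, chr1:55052583-55052640, plus strand: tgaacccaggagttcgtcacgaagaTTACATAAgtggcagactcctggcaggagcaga
Gzmm, chr10:79693822-79693875, plus strand: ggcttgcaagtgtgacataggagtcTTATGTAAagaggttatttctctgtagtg
Jdp2, chr12:85599030-85599087, plus strand: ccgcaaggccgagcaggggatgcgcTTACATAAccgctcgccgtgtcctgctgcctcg
Smim10l1 (upstream match), chr6:133105000-133105057, plus strand: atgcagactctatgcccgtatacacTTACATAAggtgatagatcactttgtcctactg
Smim10l1 (downstream match), chr6:133105190-133105247, plus strand: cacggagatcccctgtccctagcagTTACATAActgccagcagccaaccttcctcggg
Trak1, chr9:121366920-121366977, plus strand: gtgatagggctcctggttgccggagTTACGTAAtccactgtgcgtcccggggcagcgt
Txndc16, chr14:45219419-45219476, minus strand: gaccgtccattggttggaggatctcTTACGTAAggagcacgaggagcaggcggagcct
The match began 162 bases before the start in Coq10b, 74 in Ankrd40, 50 in Jdp2, 26 in Txndc16 and 13 in Trak1, and 214 and 24 before it in Smim10l1. In Gzmm it began at base 22, with the start as base 1, and this start is one of 2 listed for the gene. Jdp2 has 3 listed starts and Trak1 has 4, and the motif was in 1 window of each.

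E-boxes were searched in the same windows. CACGTG lay in promoters of 8 of the 36 members (22.2%), which were Coq10b, Cpeb1, Gzmm, Itprid2, Lonrf3, Rev1, Sh2b3 and Tpbgl, beside 12.1% of the 8601 genes and 7.15% of all windows. The related CACGTT was in 0 of the 36, beside 6.43% of the genes and 4.68% of all windows. Coq10b and Gzmm held both an E-box and a D-box, and their windows are given whole, with both motifs in capitals.
Coq10b, chr1:55052520-55052819, plus strand: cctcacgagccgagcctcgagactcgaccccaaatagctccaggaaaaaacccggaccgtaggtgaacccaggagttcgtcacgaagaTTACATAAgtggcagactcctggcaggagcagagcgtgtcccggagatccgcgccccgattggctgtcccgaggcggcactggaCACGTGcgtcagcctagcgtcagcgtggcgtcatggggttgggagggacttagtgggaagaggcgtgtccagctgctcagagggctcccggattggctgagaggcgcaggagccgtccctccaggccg
Gzmm, chr10:79693576-79693875, plus strand: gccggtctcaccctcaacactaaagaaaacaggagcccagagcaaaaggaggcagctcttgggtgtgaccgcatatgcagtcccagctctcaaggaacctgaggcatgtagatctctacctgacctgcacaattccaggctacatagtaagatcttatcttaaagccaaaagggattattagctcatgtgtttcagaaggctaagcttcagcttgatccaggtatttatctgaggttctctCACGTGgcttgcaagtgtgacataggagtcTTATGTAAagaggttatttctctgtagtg
The core of the ROR element (TAGGTCA or TGGGTCA) lay in promoters of 4 of the 36 members (11.1%, beside 5.78% of genes and 6.45% of windows). The cAMP element TGACGTCA lay in those of 3 (8.33%, beside 4.05% and 1.79%). TAATCC, a site of the CRX type that marks photoreceptor promoters, lay in those of 4 (11.1%, beside 7.08% and 7.06%), and the GC box GGGCGG in those of 29 (80.6%, beside 70.7% and 35.7%). All motifs were read on both strands. The member shares count genes, some with several windows, so they are not like for like with the shares of all windows. Over the 52 windows of the 36 members, CACGTG lay in 15.4%, CACGTT in 0% and the D-box in 13.5%. There the ROR core lay in 7.69%, TGACGTCA in 5.77%, TAATCC in 7.69% and the GC box in 69.2%. In Trak1 a TAATCC match shares bases with the D-box. Median GC content was 62.0% over the members' windows and 61.3% over those of all 8601 genes. A match describes the letters of a window and shows no binding. Members with a D-box had a median KO-WT log2 difference of 0.77 (n = 7) and the other members with an entry 0.72 (n = 29).

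The size of the difference varied widely among the members. The fitted log2 difference of KO from WT averaged across the day ran from 0.18 to 2.94, with a median of 0.74, beside a median of -0.02 over all 10823 genes from which they came. By edgeR 9.88% of all tested genes were called higher in KO, from which nothing is read about the members. The difference was 1 or more in 14 members, between 0.5 and 1 in 20 and under 0.5 in 12. Abundance ranged from 2.60 to 407 CPM, with 9 members under 10 CPM and 12 at 100 CPM or more. The gap that chose them, the ratio of the lowest KO to the highest WT library, was over 2-fold in Gzmm and Rasl10b alone. In 17 members it was under 0.1 on the log2 scale.

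**Figure D1:**
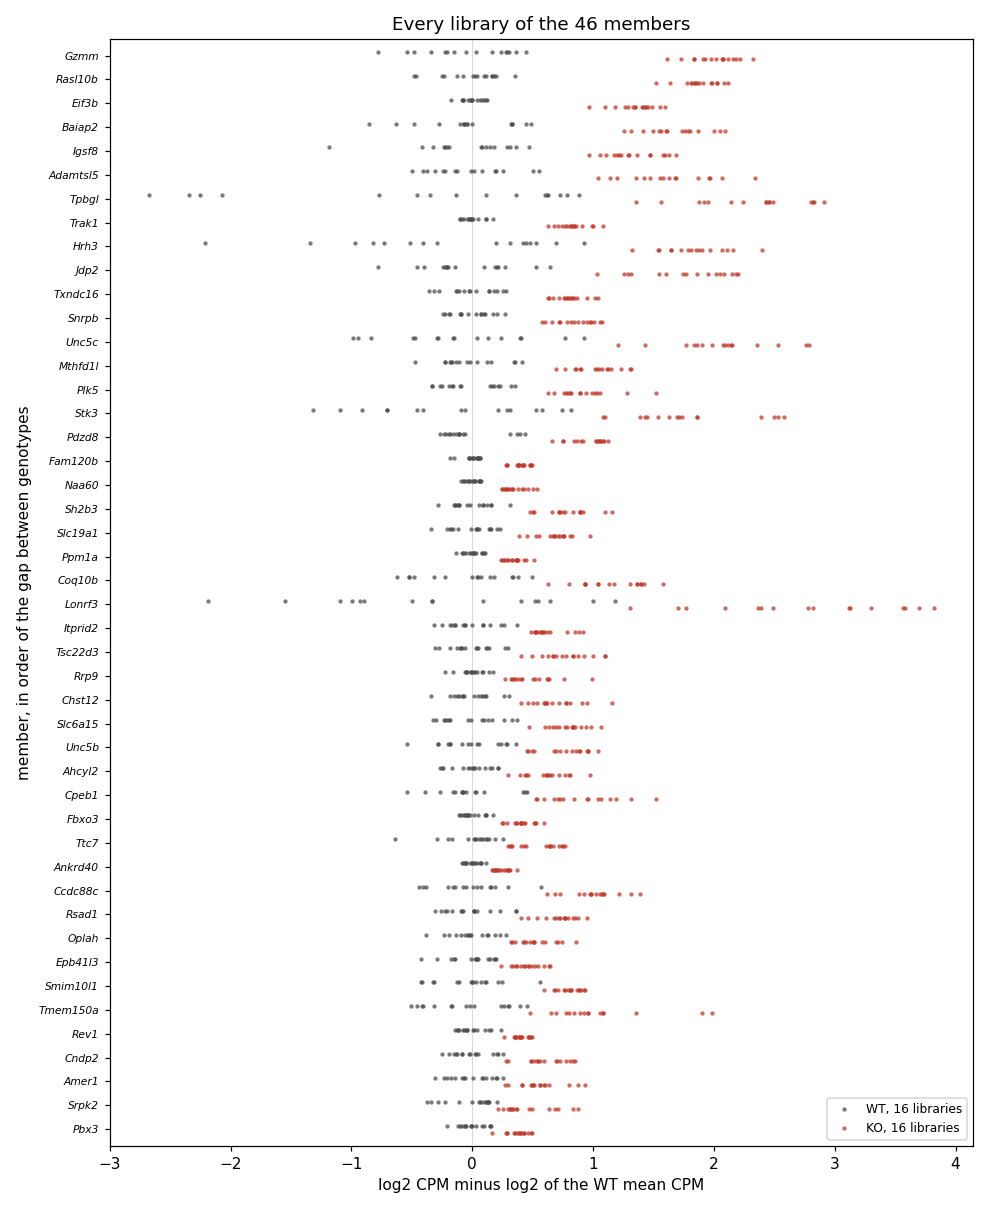
Each point is a library, with log2 CPM minus the log2 of the gene's WT mean CPM on the horizontal axis and the 46 members in order of the gap between the genotypes on the vertical axis (grey WT, red KO, 16 libraries each). Gzmm and Rasl10b show the widest gap, and the members at the bottom, down to Pbx3, are parted by less than the spread within a genotype.

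Library totals ran from 23833604 to 34582742 counts, so 1 CPM rested on at least 23.8 counts. The labelled tissue was checked against marker lists: 10 rod markers summed to 91613 to 144316 CPM in each library. Markers of other cells were also present. The inner retina list (bipolar, amacrine and Müller glia, 40 genes, 0 of them at 0 in all libraries) summed to 1286 to 2580 CPM in WT and 1815 to 3435 CPM in KO, and 12 lens markers to 66.5 to 11203 CPM in WT and 234 to 6970 CPM in KO. The sum of 8 horizontal cell markers had a median of 610 CPM in WT (467 to 686) and 438 CPM in KO (407 to 560), and that of 8 cone markers 2930 CPM in WT (2349 to 3636) and 2344 CPM in KO (1868 to 3566). The part of horizontal cells and cones in the members' differences was not tested. In tissue of mixed cells, fewer cells of a type and less RNA per cell cannot be told apart. None of the members is in these lists, but the set-aside gene Nyx, which met the rule, is in the bipolar list. It is thus part of the inner retina level. With the inner retina level as a covariate, all 46 kept a positive difference, the median was 0.74, and no member moved by more than 1.5 times. With the lens level added as well, 1 member did, Epb41l3, from 0.40 (SE 0.05) to 0.23.

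**Figure D2:**
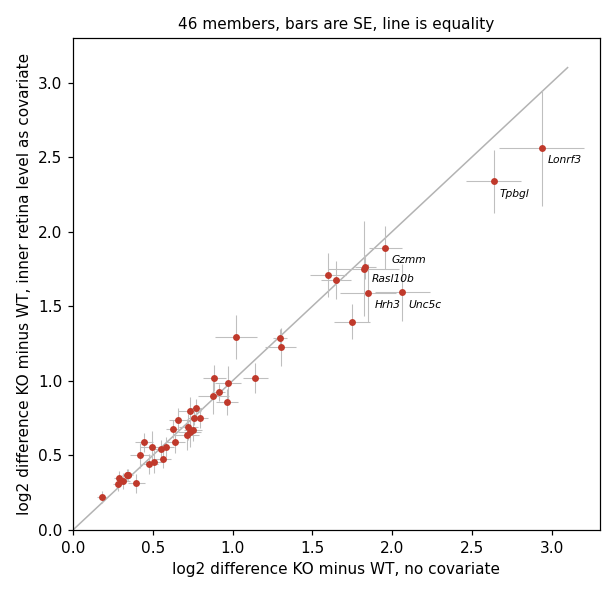
Each of the 46 members is a point, with its fitted log2 difference (KO minus WT) without a covariate on the horizontal axis and with the inner retina level as a covariate on the vertical axis, bars being standard errors and the line equality. Lonrf3 (2.94 and 2.56) and Unc5c (2.06 and 1.59) lie below the line and Tmem150a (1.02 and 1.30) above it.

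Surface, matrix and secreted proteins made up 9 members, with log2 differences from 0.64 to 2.64 and a median of 1.60, and 7 of the 9 were at 1 or more. Gzmm (ENSMUSG00000054206, chr10:79689020-79695261, GRCm38), which encodes a serine protease known from granules of cytotoxic lymphocytes, ran from 24.97 to 58.3 CPM in WT (median 42.7) and 131 to 215 CPM in KO (median 177). Its lowest KO library was 2.25-fold above its highest WT library, and its log2 difference was 1.96 (SE 0.10). Adamtsl5, a secreted matrix protein related to the ADAMTS proteases, ran from 11.2 to 23.2 CPM in WT (median 15.1) and 32.5 to 80.1 in KO (median 48.0), a difference of 1.60 (SE 0.11). Igsf8, an immunoglobulin-family membrane protein that partners with tetraspanins, ran from 9.14 to 28.7 CPM in WT and 40.6 to 66.6 in KO (1.30, SE 0.10). These genes thus span low to moderate abundance, and Hrh3 and Tpbgl lie near the lower end. Hrh3, the H3 histamine receptor that inhibits transmitter release, ran from 0.492 to 4.32 CPM in WT (median 2.23) and 5.70 to 12.01 in KO (median 8.11). Tpbgl, a leucine-rich repeat membrane protein, ran from 0.539 to 6.34 CPM in WT (median 3.43) and 8.79 to 25.9 in KO (median 18.6).

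Both netrin receptors of the group belong to the UNC5 family, which mediates axon repulsion. Unc5c ran from 2.31 to 8.71 CPM in WT (median 4.12) and 10.6 to 31.6 in KO (median 19.4), and Unc5b from 2.85 to 5.33 and from 5.68 to 8.55 CPM. Their log2 differences were 2.06 (SE 0.17) and 0.71 (SE 0.08). The remaining members of the group were Tmem150a (1.02, SE 0.13), a multispanning membrane protein, and Chst12 (0.64, SE 0.06), a sulfotransferase of chondroitin chains. In Tmem150a the groups came close: its highest WT library stood at 24.0 CPM and its lowest KO library at 24.4.

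Signalling proteins numbered 8, with a median log2 difference of 0.92. Rasl10b (chr11:83409137-83421039), a small GTPase of the Ras family, ran from 19.8 to 35.3 CPM in WT (median 28.2) and 79.4 to 119.7 in KO (median 100.5), a difference of 1.83 (SE 0.06). Baiap2, the actin regulator IRSp53 found at synapses, ran from 2.29 to 5.81 CPM in WT and 9.90 to 17.7 in KO (1.65, SE 0.09). Stk3, the Hippo pathway kinase MST2, was as much higher on average (1.82, SE 0.22) but far more spread, from 8.77 to 38.5 CPM in WT and 46.2 to 131 in KO. Plk5, an unusual polo-like kinase known from post-mitotic neurons, was the most abundant member, at 221 to 354 CPM in WT and 430 to 796 in KO (0.88, SE 0.07). Per kilobase of exon it was also the highest, with a mean of 104 CPM in WT and 200.01 in KO. The other differences were those of Ccdc88c (0.96, SE 0.07) and Amer1 (0.51, SE 0.06), which act in Wnt signalling, the cytokine adaptor Sh2b3 (0.73, SE 0.07) and the phosphatase Ppm1a (0.28, SE 0.03).

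Proteins of gene expression formed the largest group, with 11 members and the low median of 0.45. The group was taken broadly and also holds the DNA polymerase Rev1 and the acetyltransferase Naa60. Eif3b (chr5:140419328-140443360), a core subunit of translation initiation factor 3, stood apart: it ran from 60.9 to 74.6 CPM in WT (median 68.3) and 134 to 208 in KO (median 178), a log2 difference of 1.30 (SE 0.04). Jdp2, a leucine zipper repressor that pairs with JUN proteins, ran from 1.01 to 2.70 CPM in WT and 3.54 to 7.98 in KO (1.75, SE 0.11). With means of 1.73 CPM in WT and 6.02 in KO, it passed the floor of 2 CPM only through KO. Snrpb, a core protein of the spliceosome, ran from 65.4 to 93.1 CPM in WT and 115 to 162 in KO (0.79, SE 0.05). The other 8 were below 1 on the log2 scale: the poly(A) regulator Cpeb1 at 0.88, Tsc22d3, the glucocorticoid-induced leucine zipper, at 0.72, the small nucleolar RNA protein Rrp9 at 0.45, the SR-protein kinase Srpk2 at 0.42, the translesion DNA polymerase Rev1 at 0.34, the PPAR-gamma coactivator Fam120b at 0.34, the homeodomain factor Pbx3 at 0.32 and the acetyltransferase Naa60 at 0.29.

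Transport and metabolism held 8 members, from 0.48 to 1.14 with a median of 0.64. Coq10b, a coenzyme Q binding protein of mitochondria, led them: it ran from 7.84 to 16.9 CPM in WT (median 12.4) and 18.6 to 36.0 in KO (median 26.7), a difference of 1.14 (SE 0.08). A pair of members serve folate use. Mthfd1l, a mitochondrial enzyme that releases formate from folate, ran from 2.64 to 4.90 CPM in WT and 5.95 to 9.17 in KO (0.97, SE 0.08). Slc19a1, the reduced folate carrier, ran from 37.7 to 56.0 CPM in WT and 62.6 to 93.7 in KO (0.63, SE 0.04). The neutral amino acid transporter Slc6a15 (0.73), Rsad1 (0.66), Ahcyl2 (0.56), a relative of S-adenosylhomocysteine hydrolase, the dipeptidase Cndp2 (0.55) and the 5-oxoprolinase Oplah (0.48) completed the group.

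Organelle and membrane skeleton proteins numbered 6, with log2 differences from 0.40 to 0.91. Their mean levels ran from 4.78 CPM (Ttc7) to 237 CPM (Trak1). Trak1, the adaptor that couples mitochondria to motor proteins, ran from 158 to 191 CPM in WT (median 168) and 263 to 361 in KO (median 301), a difference of 0.77 (SE 0.04). Pdzd8, a tether between the endoplasmic reticulum and other organelles including mitochondria, ran from 110 to 180 CPM in WT and 209 to 288 in KO (0.91, SE 0.04). Txndc16, a thioredoxin-domain protein of the endoplasmic reticulum, ran from 68.2 to 106 CPM in WT and 135 to 180 in KO (0.76, SE 0.04). Itprid2, which binds inositol trisphosphate receptors, stood at 0.58, the kinase-complex subunit Ttc7 at 0.50 and the membrane skeleton protein Epb41l3 at 0.40.

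Protein turnover gave 2 members with very different profiles. Lonrf3, a RING finger protein with a Lon domain, had the largest fitted difference of all members (2.94, SE 0.27) and the lowest level, from 0.133 to 1.37 CPM in WT (median 0.480) and 1.496 to 8.56 in KO (median 4.21). With means of 0.604 CPM in WT and 4.59 in KO, Lonrf3, like Jdp2, passed the floor of 2 CPM only through KO. The F-box protein Fbxo3 ran from 67.0 to 81.4 CPM in WT and 85.7 to 109 in KO, a difference of 0.35 (SE 0.03). Smim10l1 (0.75) and Ankrd40 (0.18, the smallest of all) were given no role.

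The edge of the rule was narrow. The members with the smallest gap were Pbx3 (highest WT 115.7, lowest KO 116.4 CPM), Srpk2 (246.8 and 249.1), Amer1 (71.4 and 72.1), Cndp2 (34.4 and 34.9) and Rev1 (68.3 and 69.5). Just outside it were Camsap3 (35.09 and 35.04), Daam1 (91.8 and 91.0), Usp2 (270 and 266), Osbpl2 (67.7 and 66.1) and Sec62 (204 and 199). With CPM scaled by TMM (edgeR's correction for library composition) 38 genes met the rule, all of them members. Ankrd40, Cndp2, Epb41l3, Pbx3, Ppm1a, Slc6a15, Srpk2 and Ttc7 no longer did.

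Part of the counts cannot be assigned with certainty. The strand setting of the counting is not given in the sources used here, and 19 members share exon bases with a counted gene on the opposite strand. That gene was at 1 CPM or more for 11 of them, and above the member itself for Naa60, Sh2b3, Oplah, Tmem150a, Rev1 and Srpk2. The shared stretch ran from 22 bases in Naa60 (with Zfp597) to 1643 in Rev1 (with Eif5b), and Tpbgl shares 1168 bases with a less abundant gene.

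At single times all 46 members had a positive fitted difference. The rule nearly fixed this in advance, since it placed every KO library above every WT library. The median was highest at CT1 (0.85), followed by CT19 (0.76), CT10 (0.70) and CT22 (0.69). The largest difference fell at CT1 in 19 members, at CT10 in 15 and at CT19 and CT22 in 6 each. The smallest fell at CT10 in 16. Gzmm was nearly level over the day, between 1.90 and 2.02, as was Snrpb, between 0.78 and 0.81, whereas Tpbgl ran from 1.78 at CT19 to 4.53 at CT10.

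**Figure D3:**
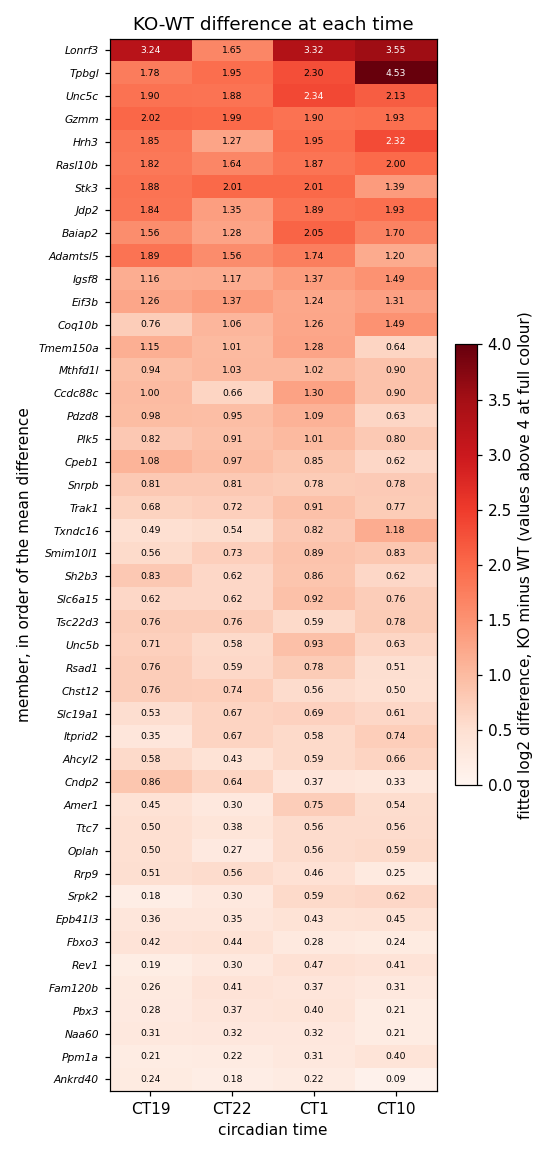
The fitted log2 difference (KO minus WT) of the 46 members is printed and shaded at each of the 4 circadian times, with members in order of the difference over the mean of the times. Every cell is positive, which the rule nearly fixed in advance, from 0.09 (Ankrd40 at CT10) to 4.53 (Tpbgl at CT10).

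The first test that the rule did not use asked whether a member differed among the 4 times within WT. All F tests are edgeR quasi-likelihood tests of 3 contrasts, adjusted over all 17871 tested genes by the Benjamini-Hochberg method, with a call at an adjusted p under 0.05. The rule reads the most extreme libraries, so a gene with a wide daily course needed a larger difference to enter. In WT 7 of 46 members (15.2%) were called, beside 14.6% of all tested genes, so the share of members called was near that of all tested genes. The tested genes include noncoding genes and genes under 2 CPM, which the rule did not admit. The share called among protein-coding genes of mean CPM 2 or more was not taken, here or in the later F tests. DESeq2 called 8, adding Cndp2, beside 19.9% of its genes, and at an adjusted p under 0.01 edgeR kept 4, beside 6.38% of all genes. The fitted means spanned a median of 0.25 log2 units over the times in members and 0.28 in all 10823 genes of mean CPM 2 or more.

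Pdzd8 had the smallest p in WT (edgeR adjusted p = 1.02e-05). It stood at 164, 172, 175 and 180 CPM in the 4 WT libraries of CT10 and between 110 and 127 CPM in the other 12, without overlap. In KO it ran from 209 to 272 CPM at CT19 and from 274 to 288 at CT10. The KO libraries of CT22 (222 to 280 CPM) and CT1 (242 to 281 CPM) overlapped those of CT10. Pdzd8 was not called in KO (edgeR adjusted p = 0.269). Fbxo3 was also highest at CT10 in WT, at 78.0, 78.4, 78.6 and 81.4 CPM there and from 67.0 to 75.05 CPM elsewhere (adjusted p = 0.0130 by edgeR). Of the 7 members called in WT by edgeR, these 2 had their highest WT mean at CT10.

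The other 5 called members had their lowest WT mean at CT10. Tpbgl was at 0.539, 0.680, 0.723 and 0.821 CPM in WT at CT10, and from 2.02 to 6.34 CPM in the other 12 WT libraries, which makes CT10 stand clear of every other time (edgeR adjusted p = 6.39e-05). In KO it ran from 8.79 to 25.9 CPM with no call (edgeR adjusted p = 0.988). Txndc16 fell from 98.3 ± 2.06 CPM at CT19 (SD, n = 4) over 95.8 ± 11.02 and 83.5 ± 4.17 to 72.6 ± 4.95 at CT10 (edgeR adjusted p = 0.00109). Coq10b fell likewise from 15.1 ± 1.89 CPM at CT19 to 8.77 ± 0.614 at CT10 (edgeR adjusted p = 0.00470). The values of CT10 and CT19 did not overlap in either gene. Oplah (edgeR adjusted p = 0.0414) and Itprid2 (0.0475) were close to the threshold. Oplah shares exons with the opposite-strand gene Exosc4, which is more abundant.

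Marker levels also differed among the times in WT. The mean log2 CPM of the inner retina list in WT was lowest at CT10 (3.36) and highest at CT22 (4.32), with 4.07 at CT19 and 3.83 at CT1, and in KO it lay between 4.06 and 4.53. The lens level in WT was 3.70 and 4.59 at CT19 and CT22, and 7.60 and 7.15 at CT1 and CT10, against 4.27 to 5.91 in KO. With the inner retina level as a covariate Pdzd8 (edgeR adjusted p = 0.00122), Tpbgl (0.00922) and Txndc16 (0.0318) remained called in WT, and Coq10b (0.168), Fbxo3 (0.254), Oplah (0.338) and Itprid2 (0.126) did not. With the lens level added, Pdzd8 and Tpbgl alone remained, and Txndc16 had an adjusted p of 0.181 by edgeR. The covariates themselves varied with time in WT, and the part of these cells in the courses was not tested.

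Within KO no member was called. By edgeR 0 of 46 members passed, beside 0.0056% of all tested genes (1 of 17871). DESeq2 also called 0 of 46, beside 1.07% of its genes. At an unadjusted p under 0.05 there were 4 members (8.70%), beside 10.4% of all genes. The fitted KO means of members spanned a median of 0.19 log2 units, beside 0.20 in all genes of mean CPM 2 or more. On simulated counts the KO test recovered 86% of genes changed 2-fold at CT10 and 50% of those changed 1.5-fold. The simulation held 200 changed genes, which eases the adjusted threshold, and no variation of marker levels between libraries. These shares therefore do not give the power of the KO test in the data.

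**Figure D4:**
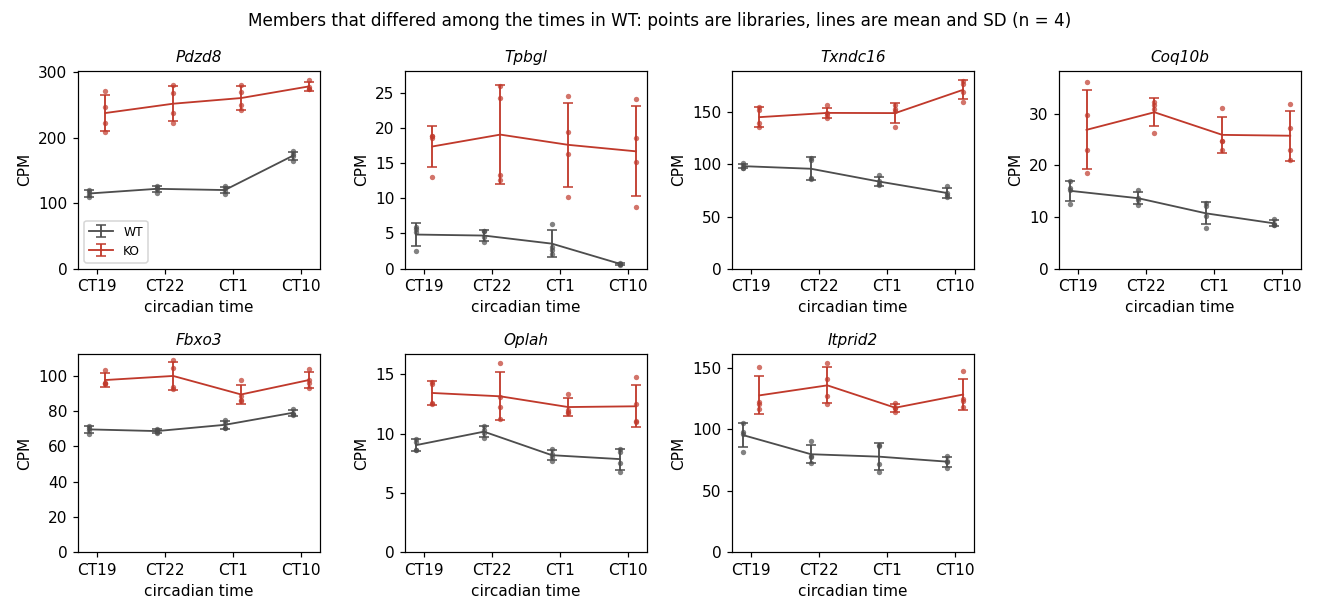
CPM of the 7 members called among the times in WT is plotted against circadian time (4 times, evenly spaced and not to scale), with a point per library and lines joining the mean with SD bars of 4 libraries (grey WT, red KO). Pdzd8 rises in WT at CT10 to 173 ± 6.47 CPM, and Tpbgl falls there to 0.691 ± 0.117 CPM.

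Whether the KO-WT difference itself changed with time was tested as an interaction. By edgeR 2 of 46 members (4.35%) were called, beside 1.62% of all genes. Txndc16 had adjusted p = 0.00106 (edgeR), with the smallest difference at CT19 (0.49, SE 0.08), then 0.54 and 0.82 at CT22 and CT1, and the largest at CT10 (1.18, SE 0.08). Its KO libraries at CT10 stood at 159, 170, 177 and 180 CPM, above all other KO libraries (135 to 157 CPM), while its WT libraries were lowest there, at 68.2, 70.3, 72.1 and 79.6 CPM. Gpr137c, which shares 159 exon bases with it on the opposite strand at 99.8 CPM, had a KO-WT difference of 0.04 (SE 0.05) and an interaction adjusted p of 0.102 (edgeR).

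Tpbgl was the other member called (edgeR adjusted p = 0.00605). Its difference lay between 1.78 and 2.296 at the other times and was 4.53 (SE 0.39) at CT10, where WT averaged 0.691 CPM and the KO libraries overlapped those of their other times. Gm10605, a noncoding gene that shares 1168 exon bases with Tpbgl on the opposite strand at 3.62 CPM, differed in the same way (1.87, SE 0.14, edgeR interaction adjusted p = 0.0143). As the strand setting is not given, reads in the shared bases cannot be assigned with certainty to either gene. With the inner retina level as a covariate Txndc16 (edgeR adjusted p = 0.00604) remained called and Tpbgl (0.0637) did not, and with the lens level added neither was called. DESeq2 called 5 of 46 members (5.44% of its genes were called), adding Cndp2, Pdzd8 and Rev1 (adjusted p = 0.00978, 0.0166 and 0.0211).

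A clock and clock output list of 44 tested genes was read beside the members. Of the 37 at mean CPM 2 or more, 14 had every KO library above every WT library and 2, Arntl and Nfil3, every KO library below, beside 0.573% and 0.111% of all genes. The 14 include 12 genes that the rule set aside, and the other 2, Coq10b (1.14) and Tsc22d3 (0.72), are members. In WT 10 of the 44 (22.7%) were called by edgeR and 13 by DESeq2, beside 14.6% and 19.9% of all genes. In KO edgeR called 0 (8 at an unadjusted p under 0.05) and DESeq2 1, beside 0.0056% and 1.07%. For the interaction edgeR called 1 and DESeq2 2, beside 1.62% and 5.44%. The list was written with results of these data known.

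Chromosome 10 held 7 of the 46 members (15.2%), beside 4.80% of all 10823 genes, a difference that was not tested. Chromosomes 4, 8 and 13 held none, beside 6.44%, 5.70% and 3.58% of all genes, and Per3, which the rule set aside, lies on chromosome 4. The targeted genes lie on chromosomes 11 (Per1) and 1 (Per2). Of the 4 members on chromosome 11, Rasl10b was the nearest to Per1, at 14.3 Mb, and the others were 25.2 to 50.8 Mb away. The 3 members on chromosome 1 (Coq10b, Rev1 and Igsf8) lay 36.3 to 80.8 Mb from Per2. Within 20 Mb of Per1, 1 of 389 genes of mean CPM 2 or more was higher in every KO library, and within 20 Mb of Per2, 2 of 132, which are the set-aside genes Col4a3 and Col4a4, beside 0.573% of all such genes.

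Some members were neighbours. Adamtsl5 (chr10:80339110-80348412) and Plk5 (chr10:80356459-80365489) lie 8.05 kb apart on opposite strands, and Gzmm lies 644 kb before them. Eif3b and Chst12 lie 62.2 kb apart on chromosome 5, with no other gene of mean CPM 2 or more between them. From Gzmm to Plk5 there are 34 such genes, of which 3 are members, and the other 31 had a median KO-WT log2 difference of -0.08, with 10 above 0. Hcn2, a pacemaker channel gene that starts 0.0276 Mb past the start of Gzmm, was the highest of these, at 0.94, though its groups overlapped. Most genes between the members thus did not share their direction. On chromosome 11, Ankrd40 and Rsad1 lie 198 kb apart, with Cacna1g (0.66) and Mycbpap (0.22) between them.

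**Figure D5:**
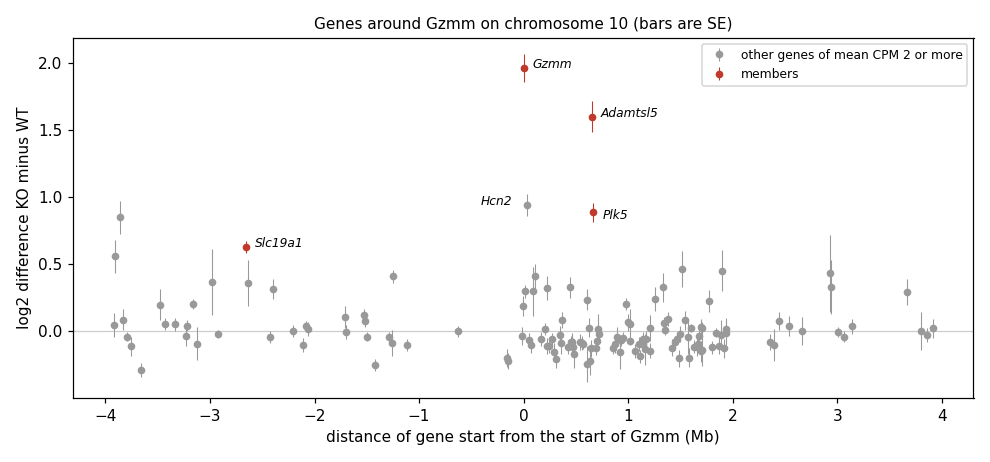
The fitted log2 difference (KO minus WT, bars are SE) of genes of mean CPM 2 or more on chromosome 10 is plotted against the distance of their start from that of Gzmm, up to 4 Mb on either side (red members, grey others). The 4 members, Gzmm, Adamtsl5, Plk5 and Slc19a1, stand among 142 genes, the others of which have a median of -0.03.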

How the data were processed

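The authors deposited raw read counts per Ensembl gene for 32 libraries in 1 table. Their processing notes, per the submitters, name HTSeq 0.11, HISAT2 2.1.0, Trimmomatic 0.32 and Cufflinks, and the build GRCm38.p6; the sources used here state neither the role of each nor the annotation, strand setting or handling of multiply matching reads. Groups came from the titles, whose animal numbers name the replicates. The WT library 5 of CT1 carries 2 animal numbers and was used as 1 library. No library pair within a group agreed within sampling noise (chi-square statistics were 12 to 107.2 times their degrees of freedom). Names and positions came from GENCODE M21.

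CPM in the text are counts over column totals. edgeR 4.0.16 in R 4.3.3 (filterByExpr, minimum count 10 and total 15, 17871 genes, TMM, robust quasi-likelihood, 24 residual degrees of freedom) fitted a mean for each of 8 groups. Alternatives were DESeq2 1.42.0, DESeq2 size factors, no filter, an adjusted p under 0.01, marker covariates, blocks, and each library left out. Covariates were mean log2 CPM of marker lists. Members and lists were chosen with earlier results of these data known, and roles after the members were named. Genes named are the 25 with the widest gap, those at the edge of the rule, those called in an F test, near neighbours and up to 5 per role; here all members are named. The genes just outside the rule and Hcn2, Cacna1g and Mycbpap were chosen after their values were seen. The fit was tested on simulated counts with 200 changed genes. At CT10 changes of 2-fold were recovered in 90% (WT), 86% (KO) and 73% (interaction) of these simulated cases.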

Additional observations from a re-analysis of the deposited data

Results flagged for a closer look

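The KO-WT difference changed with time in 2 members by the test of the interaction: Txndc16 (edgeR adjusted p = 0.00106) and Tpbgl (edgeR adjusted p = 0.00605). Both differed most at CT10, where WT was lowest. Single libraries stood far from the other 3 of their group in 4 of 56 groups examined for the 7 members with a course in WT, where chance gives about 1 in 20. Tpbgl stood at 13 CPM in KO replicate 5 of CT19, against 18.6 to 18.9 in the others. Itprid2 stood at 151 CPM and Fbxo3 at 103 CPM in KO replicate 3 of CT19, the same library for both. Oplah stood at 13.4 CPM in KO replicate 6 of CT1, against 11.8 to 11.96 in the others.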

How the results depend on the processing

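The number of members was 46, 38 with TMM-scaled CPM, 48 with a floor of 1 CPM, 42 with a floor of 5 CPM and 46 to 50 with each library left out, where the rule lost no member because leaving out a library can hardly do other than keep or widen a gap between extremes. The median KO-WT log2 difference (0.74) ran from 0.73 to 0.76 over all settings. The count of members called in WT (7) was 4 at an adjusted p under 0.01, 4 without a filter, 3 with the inner retina covariate, 2 with the lens level added and 4 to 8 with each library left out, 4 being without WT replicate 2 of CT10. The interaction count (2) was 1 and 0 with the covariates, 5 by DESeq2 and 2 to 4 with libraries left out, 4 being without KO replicate 4 of CT22. The KO count stayed at 0 throughout. Over all genes the WT count (2615) ran from 475, with the lens level added, to 3547 by DESeq2. It was 1140 at an adjusted p under 0.01, and it was also lower without a filter and with the inner retina covariate. The WT counts of members and of all genes thus fell together in these settings. Over all genes the KO count (1) ran from 0 to 183. The interaction count over all genes (289) also fell with the covariates, to 13 with the lens level added, and rose to 897 by DESeq2. Single libraries moved these by over 1.5 times: 1563 in WT without WT replicate 2 of CT10, 29 in KO without KO replicate 5 of CT19 (0 to 2 in the other fits), and for the interaction 142, 161 and 169 without KO replicates 4, 5 and 2 of CT10 and 155 and 173 without WT replicates 2 and 5 of CT10. With the replicate block of animal numbers 6 members were called in WT, 0 in KO and 3 for the interaction. The numbers share no more than a number: same-numbered libraries had a median correlation of -0.011 in their deviations, and 8 of 32 correlated best with their own number. Of the called members, Itprid2 and Oplah were lost in 23 and 17 of the 32 fits with a library left out, and Fbxo3 in 1. The cause of these changes was not tested.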

Other observations

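The boundary between the genotypes was set by many libraries. The highest WT value of a member came from a library of CT22 in 15 members, CT19 in 14, CT10 in 11 and CT1 in 6, and the lowest KO value from CT19 in 14, CT1 in 13, CT10 in 12 and CT22 in 7. Any one KO library was the lowest in at most 8 members, and any one WT library the highest in at most 9. Within a genotype the members varied about as much as other genes: the median coefficient of variation over 16 libraries was 13.9% in WT and 12.6% in KO, beside 13.8% and 12.4% over all genes of mean CPM 2 or more. Median exon length was 4806 bases, beside 4756.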
